A study of Mus musculus with 6 samples.

Results

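Probes for immunoglobulin gene segments were followed in Ter119-positive bone marrow cells of mice with and without mDia2. On the array 77 of 45281 probes carried a segment name of the form IGLC2, immunoglobulin lambda constant 2, and 36 of them were kept. The 36 were chosen by their detection p-values, the scanner's test of a signal against background, which had to be under 0.05 on 3 or more of the 6 arrays. The size of a change was not used. The 36 stood for 18 heavy chain variable, 2 heavy chain constant, 15 kappa variable and 1 lambda constant segment. Gene expression had been read on Illumina bead arrays, 1 per mouse, in a comparison of 3 wild type with 3 conditional mDia2 knockout mice, all C57BL/6 and 4 months old. mDia2, encoded by Diaph3, is a formin that builds unbranched actin filaments. The labels name no Cre line, so the cells in which the gene was deleted are not given in the sources used here. The labels call the cells erythroblasts, the nucleated precursors of red cells, from bone marrow, and each array is a separate animal.

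An antibody is made of heavy and light chains, and each light chain is either kappa or lambda. A B cell joins 1 of many variable segments to a joining segment, in heavy chains with a diversity segment between them, and transcribes it with a constant region, so each clone has its own pair of rearranged variable segments, whereas constant regions are shared by many clones. B cell progenitors in the bone marrow carry out these rearrangements, and plasma cells, the antibody secreting stage, hold very large amounts of immunoglobulin transcript. Red cell precursors do not rearrange these genes. Variable segments of a family are similar in sequence, so a probe can pick up relatives of the segment it is named for, and which probes do was not analysed here. Signal levels of different probes are not compared, since each binds with its own strength, and only their log2 changes are set side by side.

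The arrays detected between 14815 and 16951 probes, and 28 to 35 of the 36 segment probes. Erythroid genes were bright in all mice: the 19 tested erythroid markers had a summed signal of 201297 to 218532 in wild type and 221556 to 233583 in knockout mice. Signals of the tested probes were lower in the knockout group as deposited, with a median log2 change, knockout minus wild type, of -0.10 over 15743 tested probes. Over all 45281 probes the median was -0.04. For the tested probes it was 0.01 after quantile normalization, 0.02 after neqc and 0.07 when each array was centred on its tested probes. The targeted gene was lower without passing. The brighter Diaph3 probe, listed as Diap3, read 1045, 965 and 969 in wild type and 574, 341 and 486 in knockout mice (log2 change -1.12, SE 0.18, limma adjusted p = 0.0917 over all probes). Having 3 arrays per group limits precision throughout. The split of calls over all probes, 14 lower and 0 higher, depended on scaling, with 10 and 4 after quantile normalization, 26 and 7 after neqc, and 31 and 13 when each array was centred on its tested probes.

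The lambda constant probe IGLC2 fell in the knockout mice, and it was the only 1 of the 36 segment probes to pass. The gene encodes a constant region shared by lambda light chains of many clones, and in mice lambda chains form the minor light chain class. IGLC2 read 495, 533 and 449 in wild type replicates 1 to 3 and 185, 237 and 231 in knockout replicates 1 to 3. Every knockout mouse lay well below every wild type mouse, so the groups did not overlap. The wild type mean was 492 ± 42.1 (SD, n = 3), and that of the knockout mice, at 217 ± 28.4 (SD, n = 3), was 2.27-fold lower. On the log2 scale the change was -1.19 (SE 0.12), lower in 3 of 3 knockout mice (limma adjusted p = 0.0196 over all tested probes). An exact two-sided permutation test gave p = 0.1, the smallest value that 3 against 3 mice allow.

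Among the segment probes, 1 of 36 called lower stood beside 0.0889% of all tested probes called lower. None of the 36 was called higher, beside 0% of all tested probes, and none had an unadjusted p under 0.05 in the higher direction. Leaving out wild type replicate 1 or knockout replicate 3 ended the IGLC2 call, with limma adjusted p = 0.101 and 0.0856, at log2 changes of -1.18 and -1.23. Quantile normalization (limma adjusted p = 0.0792) and background correction with neqc (-1.30, limma adjusted p = 0.0689) ended it too. So did the replicate numbers taken as a block (limma adjusted p = 0.103) and a term for the series of the animal numbers (-1.16, limma adjusted p = 0.131). The adjusted p ranged from 0.00279 to 0.131 over all alternatives. The animal numbers in the labels fall into a lower and a higher series, which the labels do not explain. In the lower one IGLC2 read 495 in wild type and 185 and 237 in knockout mice. In the higher one it read 533 and 449 against 231. Since the groups did not overlap, knockout values had to be lower within each series, so this order says nothing further about the series.

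**Figure D1:**
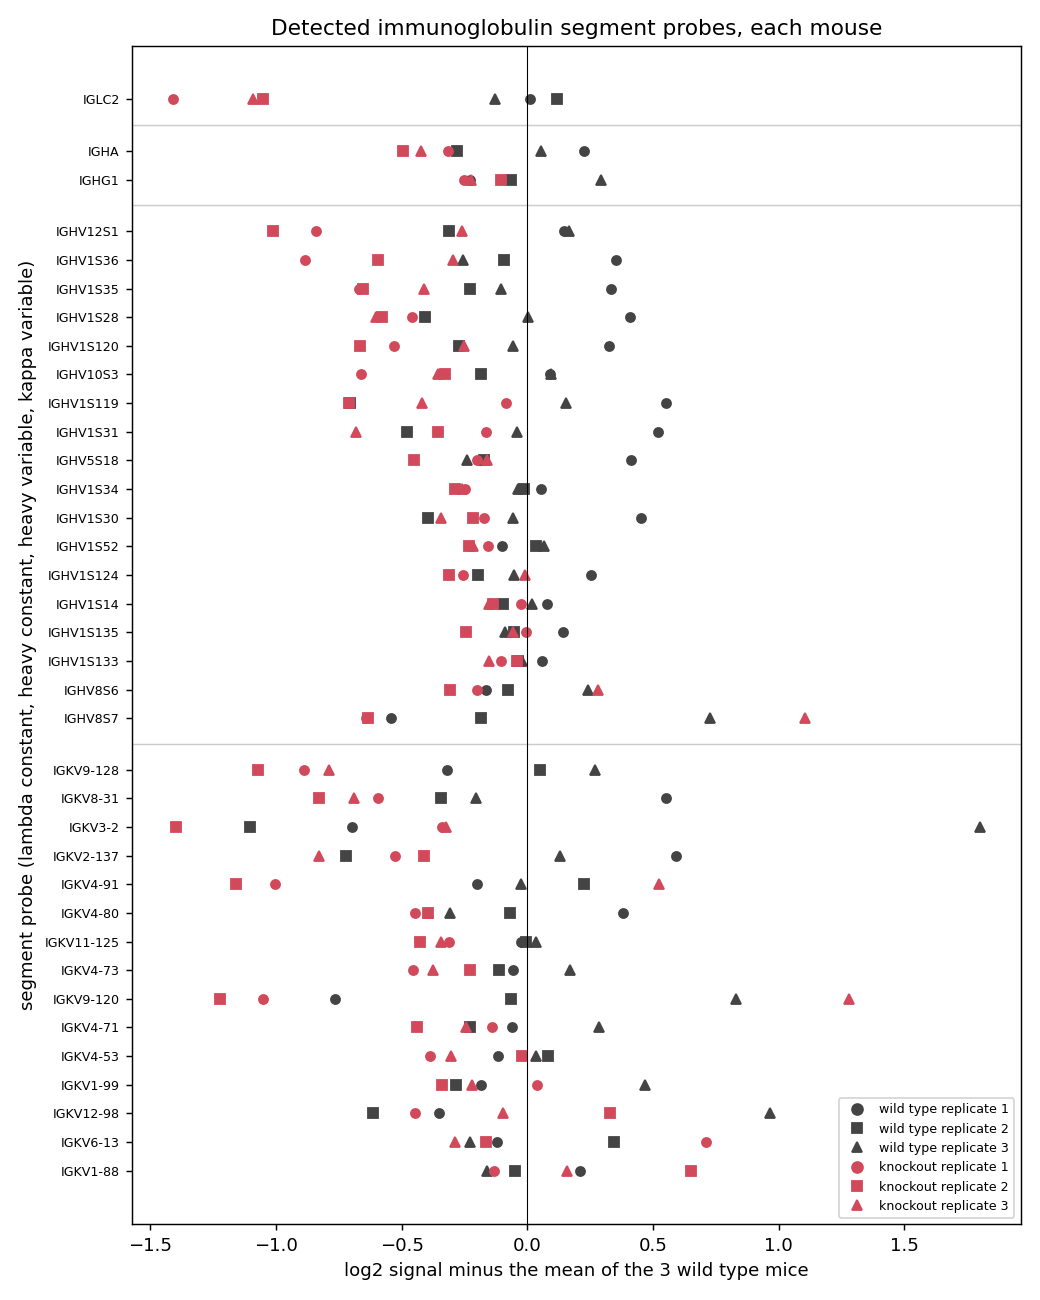
Log2 signal of each of the 36 detected immunoglobulin segment probes in each mouse, on the x axis as the difference from the mean of the 3 wild type mice; rows are probes in blocks of lambda constant, heavy constant, heavy variable and kappa variable segments, black symbols are wild type and red symbols knockout mice, with 1 symbol shape per replicate number. The knockout values of IGLC2 lie between -1.41 and -1.05, apart from all wild type values, whereas IGKV3-2, IGKV9-120 and IGHV8S7 spread widely within a group.

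Heavy chain constant segments were less clearly separated. IGHA, the constant region of immunoglobulin A, the antibody class of mucosal secretions, read 186, 131 and 165 in wild type and 128, 113 and 119 in knockout mice. The groups did not overlap, though wild type replicate 2 lay close to knockout replicate 1, and the log2 change of -0.41 (SE 0.13) did not pass (limma adjusted p = 0.191). IGHG1, the constant region of immunoglobulin G1, read 96.1, 107 and 138 in wild type and 94.4, 105 and 96.1 in knockout mice. It was near background, detected in 2 wild type mice and 1 knockout mouse, and the groups overlapped at a log2 change of -0.19 (limma adjusted p = 0.444). A probe outside the 36, listed as Igh-4, which the RefSeq gene table names Ighg1, was detected on all 6 arrays. It read 115, 117 and 179 in wild type and 99.7, 116 and 102 in knockout mice, with overlap (log2 change -0.35, limma adjusted p = 0.316).

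All 18 heavy variable probes had log2 changes below 0, from -0.70 to -0.06 with a median of -0.27, beside 81.0% of all tested probes below 0, whereas 16 of them lay below 0 after quantile normalization or neqc and 13 after centring. None of the 18 passed in limma, while 8 had an unadjusted p under 0.05, beside 17.6% of all tested probes lower at that level. In 7 of them every knockout value lay below every wild type value, as in 23.0% of all tested probes. The IGHV1 family, the large group also known as J558, supplied 13 of the 18, out of 38 IGHV1 probes on the array. Its detected members ranged from -0.59 to -0.10.

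IGHV1S35, of the IGHV1 family, read 574, 389 and 424 in wild type and 286, 290 and 342 in knockout mice. Its log2 change was -0.58 (SE 0.15, limma adjusted p = 0.180), and the groups did not overlap although the probe did not pass. IGHV1S34, of smallest p in this class, was dim but even between mice, at 124, 118 and 116 in wild type and 100, 97.8 and 99.4 in knockout mice. Its log2 change of -0.27 (SE 0.07) did not pass either (limma adjusted p = 0.180). IGHV12S1, the single detected member of a small family, had the lowest log2 change among heavy segments, -0.70 (SE 0.21, limma adjusted p = 0.187). It read 348, 253 and 353 in wild type and 175, 156 and 263 in knockout mice, so knockout replicate 3 lay within the wild type range. IGHV10S3 read 152, 126 and 152 against 90.2, 114 and 112, without overlap and with a log2 change of -0.45 (limma adjusted p = 0.180).

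Wild type replicate 1 carried the highest value in several heavy probes. IGHV1S119 read 628, 263 and 477 in wild type and 404, 262 and 320 in knockout mice, so that wild type replicate 2 lay beside the lowest knockout mouse. IGHV1S120 read 406, 268 and 311 against 224, 204 and 271, and IGHV1S36 read 409, 300 and 269 against 174, 212 and 262. Their log2 changes were -0.40, -0.48 and -0.59, and none passed (limma adjusted p = 0.486, 0.207 and 0.193). Over all 36 segment probes, wild type replicate 1 was the highest of the 6 mice in 17 and wild type replicate 3 in 11, against 2 for wild type replicate 2. Knockout replicate 2 was the lowest mouse in 18 of the 36.

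Of the 15 kappa variable probes 13 had log2 changes below 0 and 2 above, with a median of -0.35 and a range from -0.92 to 0.23, and 11 to 12 were below 0 under the other scalings. That is 86.7% below 0, beside 81.0% of all tested probes. None passed in limma, 5 had an unadjusted p under 0.05, all of them lower, beside 17.6% of all tested probes, and in 5 the groups did not overlap, beside 23.0%. These 5 include IGKV11-125 and IGKV4-80, which were detected in wild type mice alone. IGKV9-128 had the lowest value. It read 249, 322 and 375 in wild type and 168, 148 and 180 in knockout mice, with means of 316 ± 63.4 (SD, n = 3) and 165 ± 16.4 (SD, n = 3). All 3 knockout mice lay below all 3 wild type mice, and the log2 change of -0.92 (SE 0.15) did not pass (limma adjusted p = 0.108, range over the alternatives 0.0252 to 0.382). It passed with an intensity trend in the variance model (limma adjusted p = 0.0252) and with array weights (-0.75, limma adjusted p = 0.0471).

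IGKV8-31 read 373, 201 and 221 against 169, 143 and 158, a log2 change of -0.70 (SE 0.22, limma adjusted p = 0.187) without overlap. IGKV4-73 read 151, 145 and 177 against 115, 134 and 121, again without overlap, with a log2 change of -0.35 (limma adjusted p = 0.185). These probes were thus lower in every knockout mouse while none of them passed over all tested probes. IGKV2-137 read 430, 173 and 313 against 198, 215 and 161, and wild type replicate 2 lay among the knockout mice (log2 change -0.59, limma adjusted p = 0.325).

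IGKV11-125 and IGKV4-80 were detected in all 3 wild type mice and in none of the knockout mice, and so entered the set through the group where they were high. IGKV11-125 read 116, 118 and 121 in wild type and 95.3, 88.2 and 93.3 in knockout mice. Since its knockout signal was not above background, its fold is a bound, with wild type at least 1.21-fold higher (limma adjusted p = 0.155). For the bound, each knockout array contributed either its dimmest detected signal or the signal of the probe, whichever was larger. IGKV4-80 read 163, 119.5 and 101 against 92.0, 95.4 and 95.5, at least 1.28-fold higher in wild type (limma adjusted p = 0.234). The p-values of both probes are descriptions, since the detection rule favoured a difference. In all, 10 of the 36 were detected in more wild type than knockout mice, 3 in more knockout than wild type mice and 23 in equal numbers. The same split was not counted over all tested probes, so it is not read as a result about the segments. Over all probes the arrays detected 15698, 15315 and 16951 in wild type and 14815, 15700 and 14940 in knockout mice.

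The detection rule favoured a difference in probes detected in wild type mice alone. The 23 segment probes detected on all 6 arrays were therefore also described alone. All 23 had log2 changes below 0, beside 80.9% of the probes detected on all 6 arrays, with a median of -0.40 beside -0.11, and 19 to 20 of the 23 did so under the other scalings. In 11 of the 23 the groups did not overlap and the knockout mice were lower, beside 23.1% of the probes detected on all 6 arrays. No segment probe had all knockout values above all wild type values, beside 1.98% of all tested probes.

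**Figure D2:**
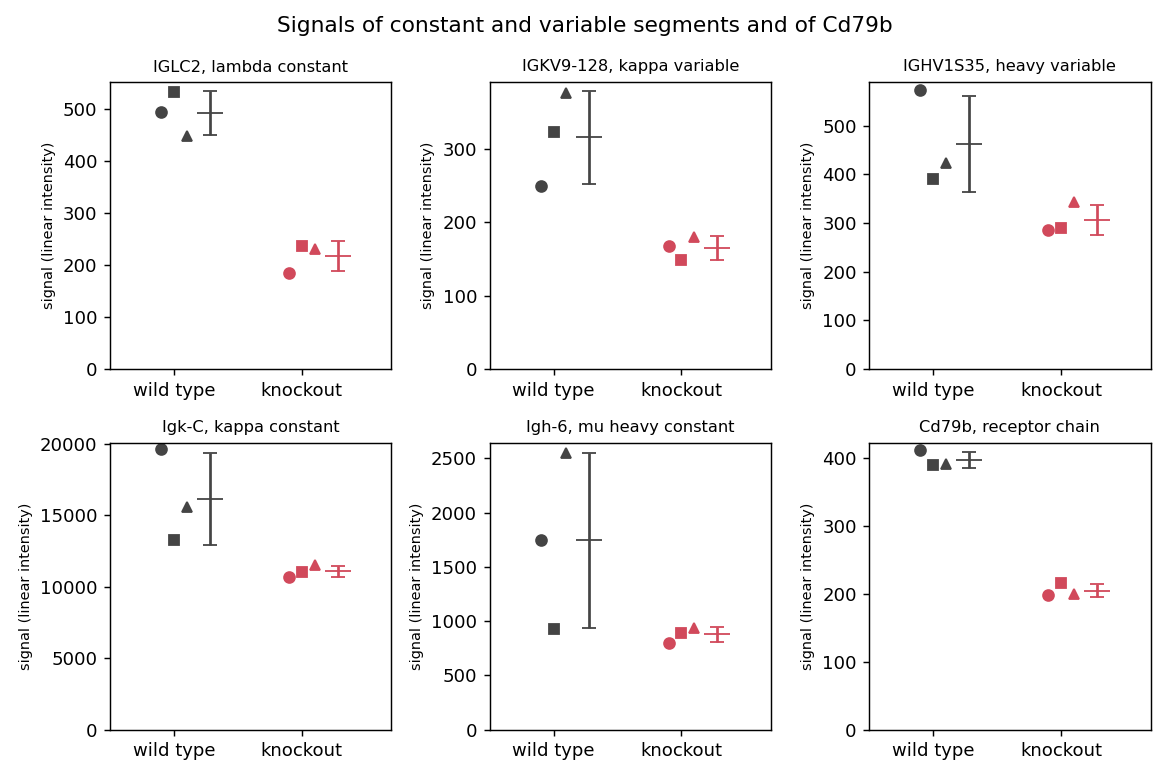
Linear signal (y axis, from 0) in each mouse for 3 segment probes, for the kappa constant gene Igk-C, the brighter probe of the mu constant gene Igh-6 and the receptor chain gene Cd79b; the bars beside the points are the mean and SD of 3 mice. In all panels but that of Igh-6 the knockout points lie below the wild type points, and those of IGLC2 and Cd79b are tightly grouped in both genotypes.

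The spread of the segment probes between mice of the same genotype was also described. The SD of the log2 signal within groups, pooled over both, had a median of 0.26 over the 36, beside 0.12 over all tested probes. It was above 0.5 in 6 of the 36, or 16.7%, beside 1.28% of all tested probes. Such spread was not particular to the segment probes. Among immunoglobulin genes outside the 36, the Igk-V5 probes had SDs of 0.78 and 0.86 and the Igl-V1 probes 0.67 and 0.79. Among monocyte genes, Ly6c1 had 1.02 and C1qb 0.75. Others lay lower, as Igk-V1 at 0.07 and the monocyte gene Cd300a at 0.09. All 6 were variable segments, 4 of kappa and 2 of heavy chains, as were 33 of the 36 members. Of the 6, 3 are the members of largest SD named here. Outside the 36, the brighter probe of the mu constant gene Igh-6 had an SD of 0.53, its other probe 0.49 and the kappa constant gene Igk-C 0.20. In IGKV9-120, IGHV8S7 and IGKV4-91, every mouse of the higher animal number series read above every mouse of the lower one. In the others of the 6 the 2 series overlapped. The part of the series in this spread was not tested.

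IGKV3-2 read 240, 181 and 1355 in wild type and 307, 147 and 311 in knockout mice. Wild type replicate 3 was 4.36 times the next highest mouse, and the log2 change of -0.69 became 0.21 without that mouse. IGKV9-120 read 258, 418 and 778 in wild type and 211, 187 and 1062 in knockout mice, so the highest mouse of all was knockout replicate 3. Its log2 change of -0.33 was -1.14 when knockout replicate 3 was left out and 0.11 when knockout replicate 2 was. IGHV8S7 read 139, 179 and 337 against 130, 131 and 437, and the same mouse of each group, replicate 3, was high. None of these 3 passed, with limma adjusted p from 0.609 to 0.961.

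The same pair of mice was also high for IGHV8S6, at 161 in wild type replicate 3 and 165 in knockout replicate 3, where the other mice read 110 to 129. Both of these mice have animal numbers of the higher series, as does wild type replicate 2. At 129 for IGHV8S6, wild type replicate 2 was lower than both but above every mouse of the lower series. IGKV4-91 read 185, 249 and 209 in wild type and 106, 95.3 and 306 in knockout mice. Knockout replicate 3 was the highest mouse, while the other knockout mice lay below all wild type mice. IGKV12-98 was high in wild type replicate 3, at 326, where the other wild type mice read 131 and 109 and the knockout group 122, 209 and 156.

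**Figure D3:**
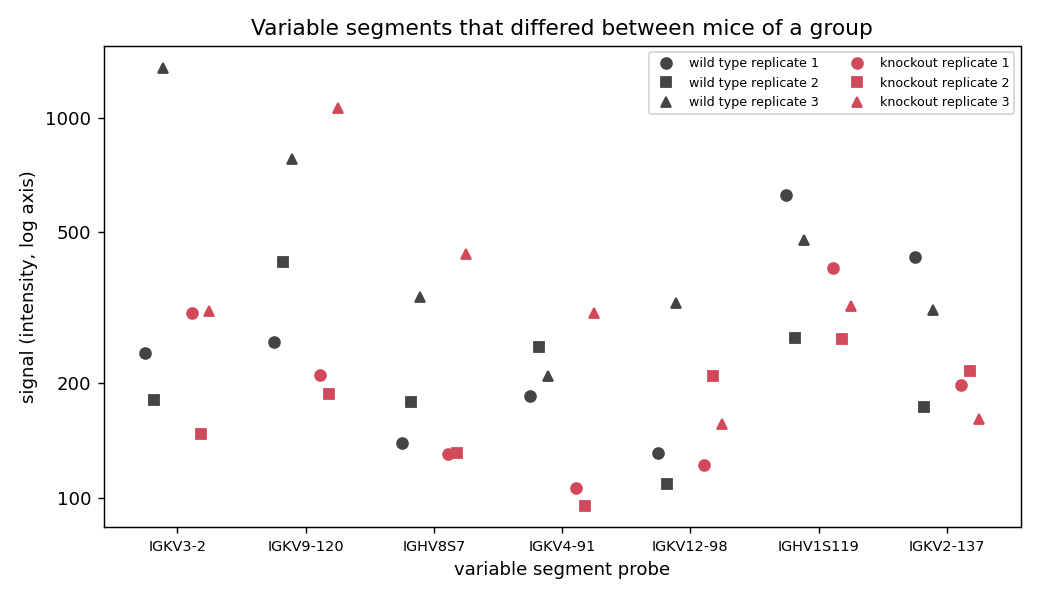
Signal of 7 variable segment probes in each mouse on a log axis, with wild type mice in black and knockout mice in red and 1 symbol shape per replicate number. Wild type replicate 3 stands at 1355 for IGKV3-2, and wild type replicate 3 and knockout replicate 3 (triangles) are the highest mice for IGKV9-120 and IGHV8S7.

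The 2 kappa probes above 0 were IGKV1-88 (log2 change 0.23, limma adjusted p = 0.540) and IGKV6-13 (0.09, limma adjusted p = 0.878). Each rested on a single knockout mouse, IGKV1-88 at 152 in knockout replicate 2 and IGKV6-13 at 177 in knockout replicate 1, while the other mice of both genotypes read at most 112 and 138. No member was above the wild type mean in all 3 knockout mice.

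**Figure D4:**
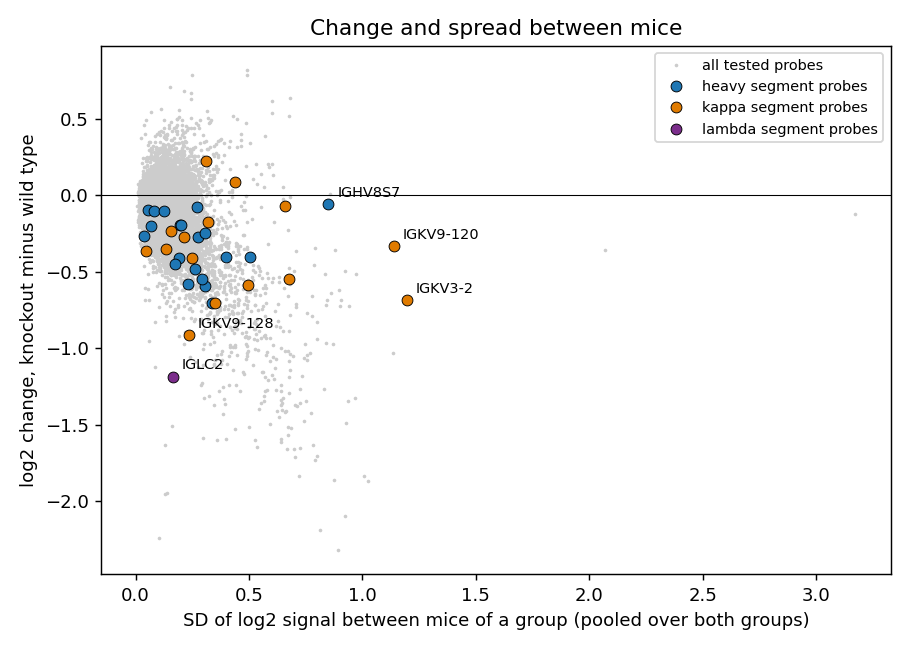
SD of the log2 signal between mice of a group, pooled over both groups (x axis), against the log2 change, knockout minus wild type (y axis), for all 15743 tested probes in grey and the 36 segment probes in colour by chain. IGLC2 combines a change of -1.19 with an SD of 0.16, while IGKV3-2 and IGKV9-120 have SDs of 1.19 and 1.14.

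All 15 kappa members matched a segment name of the RefSeq gene table (GRCm38.p6) on chromosome 6, IGLC2 matched on chromosome 16 and both heavy constant segments on chromosome 12, whereas the older names of the heavy variable probes matched none. Of the kappa members 13 are listed there as variable segments and 2 as variable segment pseudogenes. These 2, IGKV9-128 and IGKV8-31, had the lowest log2 changes of the 15, an observation made after their values were seen and given without a test. In order along the 162 kappa variable entries of the table, the members ran from the first, Igkv2-137, to entry 161, Igkv3-2. The lowest changes did not lie together, at entries 11 and 130. Igkv2-137 lies farthest from the joining segments and Igkv3-2 near them.

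Other immunoglobulin genes on the array carry ordinary symbols and were not members. The kappa constant gene, listed as Igk-C, read 19596, 13238 and 15551 in wild type and 10678, 11049 and 11491 in knockout mice. The groups did not overlap, and the log2 change of -0.52 (SE 0.14) did not pass (limma adjusted p = 0.180). Of the 2 probes of Igh-6, the mu constant gene that encodes the heavy chain of immunoglobulin M, the one of smaller p read 1870, 959 and 2438 in wild type mice, against a knockout mean of 858 ± 46.9 (SD, n = 3), without overlap (log2 change -0.93, limma adjusted p = 0.191). The other, brighter probe read 1749, 933 and 2552 in wild type and 799, 895 and 941 in knockout mice, and wild type replicate 2 lay just below knockout replicate 3 (log2 change -0.88, limma adjusted p = 0.218). Without wild type replicate 2 both probes passed, at -1.32 and -1.27 (limma adjusted p = 0.0291 and 0.0494). Igh-VJ558, a probe for the J558 family, read 17073, 10661 and 12513 against 10808, 8699 and 7143 (log2 change -0.59, limma adjusted p = 0.205), and the groups overlapped.

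The 2 probes of Igk-V38, which the gene table names Igkv19-93, had log2 changes of -0.80 and -0.81 and did not pass (limma adjusted p = 0.155 and 0.180). Chosen after its values were seen, Gm459, which the table names Igkv4-86, read 149, 155 and 144 against 98.3, 99.7 and 96.2. It fell by 0.61 as a log2 change (SE 0.07, limma adjusted p = 0.0407). The probe was detected in 3 wild type mice but in 1 knockout mouse. Its knockout signals lay near the dimmest detected signals of the knockout arrays, 99.3, 97.2 and 97.1, so background limits the size of the change. Its call ended under most alternatives, among them quantile normalization (limma adjusted p = 0.0820), centring on the tested probes (0.0981) and leaving out any mouse but knockout replicate 2 (0.0602 to 0.253, of a range of 0.00386 to 0.276 over all).

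The probes of a lambda variable segment overlapped between genotypes, and a difference from IGLC2 was tested. The brighter Igl-V1 probe, for the variable segment 1 of the lambda locus, read 6276, 2949 and 4455 in wild type and 4138, 4076 and 1624 in knockout mice, with overlap (log2 change -0.53, limma adjusted p = 0.486). The log2 signal of IGLC2 minus that of each of 4 other probes was taken within each mouse, and this difference, relative to its wild type mean, was compared between genotypes. Relative to Igl-V1, IGLC2 differed between genotypes by -0.66 on the log2 scale, with an SD of 0.88 between knockout mice (exact two-sided permutation p = 0.4, Benjamini-Hochberg adjusted 0.4 over the 4). Relative to Igk-C it differed by -0.66 with an SD of 0.16 (exact permutation p = 0.1, the smallest possible, adjusted 0.4), relative to Cd79b by -0.23 (exact permutation p = 0.2, adjusted 0.4) and relative to IGKV9-128 by -0.27 (exact permutation p = 0.4, adjusted 0.4). The smallest p of this design lies above 0.05, so these tests could not pass. IGLC2 was also the segment probe that had passed on these same arrays, so the differences are descriptions.

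Genes of B cell lists, which are not rearranged, were also counted. The lists were not restricted to genes that B cells alone express, and the part of other cells in their changes was not tested. Of 45 tested genes of the pre-B, mature B and receptor signalling lists, 2 passed as lower and 0 as higher, beside 0.104% of all gene symbols called lower. In 26 of the 45 the groups did not overlap with the knockout lower, beside 23.2% of symbols, and 42 lay below 0, beside 81.2% of symbols, with 39 below 0 after quantile normalization or neqc and 32 after centring. The median was -0.36, beside -0.11 over all symbols. Cd79b, which transmits signals from the B cell receptor, read 412, 390 and 392 in wild type and 199, 217 and 200 in knockout mice. It fell by 0.96 in log2 units (SE 0.07, limma adjusted p = 0.00383). The Cd79b call ended with the replicate numbers taken as a block (limma adjusted p = 0.103). Ly6d, a surface protein of B cell progenitors, read 175, 189 and 189 against 118, 119 and 125 and fell by 0.62 (SE 0.07, limma adjusted p = 0.0426). The Ly6d call ended with quantile normalization (limma adjusted p = 0.105), centring (0.0875), neqc (0.0789), a pseudocount of 16 (0.0510) and detection on all 6 arrays (0.0773). It also ended with the replicate block (0.276) and the animal number series (0.197). Leaving out any single mouse but knockout replicate 2 ended it too (0.0630 to 0.292, of 0.0153 to 0.292 over all alternatives).

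Faim3, a receptor for immunoglobulin M now named Fcmr, read 230, 336 and 254 against 128, 147 and 137 without overlap (log2 change -0.97, limma adjusted p = 0.0904). Vpreb3, part of the pre-B cell program, read 258, 140 and 233 against 131, 128 and 138 (-0.62, limma adjusted p = 0.202). Neither passed. Of the pre-B list 13 of the 24 genes on the array were tested, and the recombinase genes Rag1 and Rag2, the terminal transferase Dntt and the B cell factor Pax5 were detected on 0 arrays.

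None of the 15 tested plasma cell genes passed in limma, while 7 had an unadjusted p under 0.05, beside 17.6% of all tested probes lower at that level. Of the 15, 14 lay below 0, beside 81.2% of symbols (13 after quantile normalization or neqc, 10 after centring), with a median of -0.26. Txndc5, an endoplasmic reticulum disulfide isomerase, read 365, 308 and 378 against 238, 224 and 219 (log2 change -0.62, limma adjusted p = 0.0917). Mzb1, an endoplasmic reticulum protein of B cells listed as 2010001M09Rik, read 259, 193 and 234 against 161, 149 and 155 (-0.55, limma adjusted p = 0.156). Both lacked overlap between groups and neither passed. The plasma cell genes Sdc1, Prdm1 and Derl3 were detected on 0 arrays, and the joining chain gene Igj, which links antibodies into polymers, read 123, 105 and 104 against 105, 102 and 103 (-0.10, limma adjusted p = 0.544).

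The mean log2 signal of a list was also taken in each mouse, relative to the wild type mean. Heavy variable members lay at 0.19, -0.22 and 0.03 in wild type and at -0.35, -0.43 and -0.18 in knockout replicates 1 to 3. Kappa variable members lay at -0.08, -0.19 and 0.27 and at -0.40, -0.48 and -0.20. Knockout replicate 3 was the highest knockout mouse for both, and it lay above wild type replicate 2 for the heavy members and level with it for the kappa members. The pre-B list lay at 0.08, -0.17 and 0.10 and at -0.37, -0.35 and -0.34, and the mature B list at -0.04, -0.07 and 0.12 and at -0.50, -0.32 and -0.51, without overlap in either. The mean over all tested probes did not overlap either, at -0.05, -0.06 and 0.11 in wild type and -0.12, -0.09 and -0.19 in knockout mice. Knockout replicate 2 was the highest knockout mouse for the receptor signalling list, at -0.54, -0.26 and -0.56 in knockout replicates 1 to 3. It was also the highest knockout mouse for the mature B list and the monocyte list, the latter at -1.12, -0.21 and -1.09, but not for the pre-B list.

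**Figure D5:**
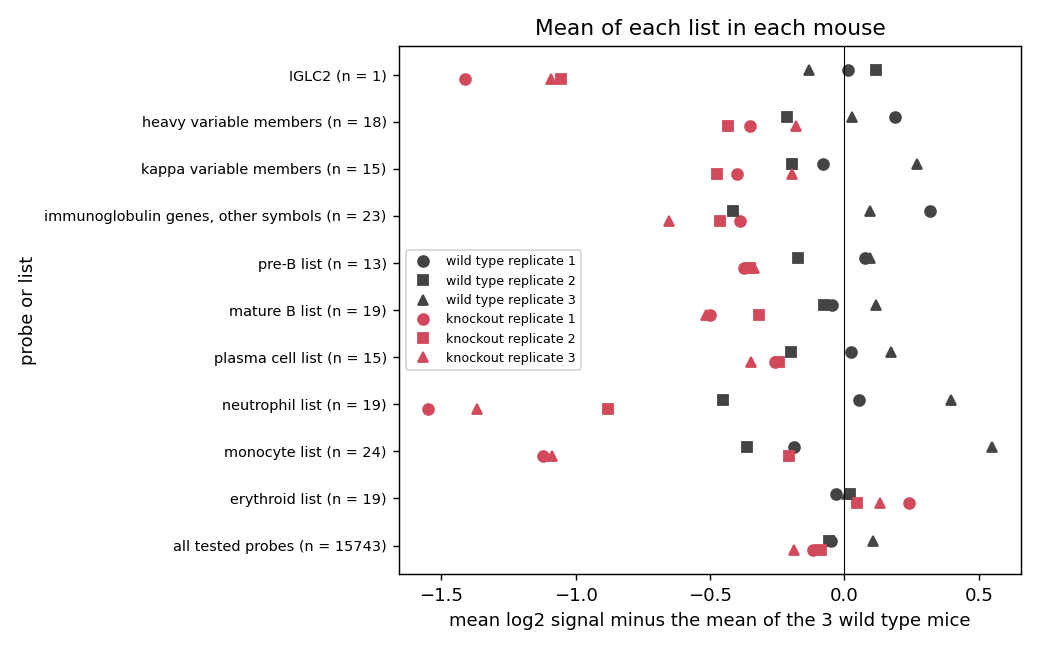
Mean log2 signal of each list in each mouse, as the difference from the mean of the 3 wild type mice (x axis), for IGLC2, the heavy and kappa variable members, immunoglobulin genes under other symbols, B cell lists and lists of other cell types; black is wild type and red is knockout, with 1 symbol shape per replicate number. The variable segment lists of the 2 genotypes meet at about -0.20, while the neutrophil list of the knockout mice lies between -1.55 and -0.88.

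Markers of other bone marrow cells were lower in the same mice. All 19 tested neutrophil genes lay below 0, with a median log2 change of -1.31, no overlap in 18 and a summed signal of 39726 to 57150 in wild type and 16089 to 28320 in knockout mice. The 24 monocyte genes had a median of -0.68 and summed to 18240 to 44479 in wild type and 8084 to 18326 in knockout mice. The 11 megakaryocyte genes had a median of -0.62 and summed to 2188 to 3060 against 1733 to 1794. None of these genes passed over all probes in limma, while 19 of the neutrophil, 10 of the monocyte and 9 of the megakaryocyte genes had an unadjusted p under 0.05, beside 17.6% of all tested probes lower at that level. Knockout mice lay below all wild type mice in 5 of the monocyte and 10 of the megakaryocyte genes, beside 23.2% of symbols. Of the T and NK cell markers, 3 of the 16 genes on the array met the detection rule, with a median of -0.04. Their log2 changes were -0.59 for Nkg7, -0.04 for Cd3e and -0.02 for Lck. The erythroid markers had a median of 0.13. In RNA from a bulk fraction, fewer B cells and less immunoglobulin RNA per cell cannot be told apart, and the part of these other cells in the segment results was not tested.

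At the edge of the detection rule, 8 members were detected on exactly 3 arrays, with signals from 85.4 to 177 and log2 changes from -0.41 to 0.23. A further 3 probes, among them IGHV10S1 and IGHV1S59, were detected on exactly 2 arrays and left out, with signals from 89.2 to 121 and log2 changes from -0.25 to 0.02. Of the 41 segment probes that were left out, 32 were detected on no array, and their signals lay between 79.0 and 98.9.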

How the data were processed

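Total RNA of 6 mice had been extracted with Trizol and amplified with an Illumina TotalPrep kit, per the labels' protocols. The authors deposited, per the file headers, an average signal (intensity, linear scale) and a detection p-value for each probe and array, under a name that calls the values normalized; the method, scanner software and background correction are not given in the sources used here. The authors' other table held the same intensity for all 45281 probes. Lines without values, 2 in all, were left out.

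No further normalization was applied before taking log2. The 15743 probes that 3 or more of 6 arrays detected (p under 0.05) entered limma 3.58.1 (lmFit, then eBayes) under R 4.3.3. Knockout was set against wild type without covariates, tests were two-sided, and p was adjusted by Benjamini and Hochberg's method across these probes, with calls at 0.05. A list gene was represented by its tested probe with the highest mean. The code was tested on simulated data.

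The members and lists were chosen with earlier results of these data known. Named members were those that passed, the constant segments, up to 4 variable probes per chain with the highest mean and up to 4 with the smallest p, and 3 with the largest SD; a few others were added after their values were seen. Listed genes were up to 4 per list with the smallest p, and others named for a defining role. Alternatives covered normalization, background correction, pseudocount, filter on dim probes, variance model, array weights, replicate block, animal number series, threshold, each mouse left out and the mean of a gene's probes.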

Additional observations from a re-analysis of the deposited data

How the results depend on the processing

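The count of 1 segment probe called lower was 0 with quantile normalization, with neqc, with the replicate block and when the animal number series was a term, 3 with an intensity trend (besides IGLC2, IGKV9-128 and IGKV11-125, the latter a member only through detection in wild type mice) and 2 with array weights, and 0 to 1 with each mouse left out. Under the replicate block IGLC2 had limma adjusted p = 0.103, as did Cd79b, so that both calls ended; same-numbered arrays deviated from their group means with correlations of 0.22, -0.28 and -0.19 across all tested probes and 0.35, 0.07 and 0.39 across the segment probes, not all above 0.1 in either, so the numbers were not taken to pair the mice. No alternative called a segment probe higher. The median log2 change of the segment probes, -0.34, was -0.19 with quantile normalization (array median 0.01), -0.17 when centred on the tested probes (0.07) and -0.093 without a filter on dim probes, where all 77 named probes entered. It was -0.40 to -0.27 with each mouse left out. The count of 2 B lineage genes was 1 with quantile normalization, centring, a pseudocount of 16, detection on all 6 arrays, the animal number series and the mean of a gene's probes, 9 with an intensity trend, 6 with array weights, 0 with the replicate block and 1 to 6 with each mouse left out. Omitting knockout replicate 2 gave the 6, omitting wild type replicate 2 gave 4, and omitting any other mouse gave 1. With neqc it was also 2, with Tnfrsf13c in place of Ly6d. The 0 plasma cell genes became 1 with an intensity trend, with array weights and at a threshold of 0.1, and were 0 to 1 with each mouse left out. Diaph3 also passed with an intensity trend (-1.12), array weights (-1.04), a threshold of 0.1 (-1.12) and without knockout replicate 2; it was -1.29 to -0.91 over the fits that left out a mouse. The cause of these changes was not tested. Of the named segments, 6 changed sign under at least 1 alternative and passed in none of them. IGHV8S7 was at 0.13 with quantile normalization, 0.12 centred, 0.075 with neqc, 0.32 with array weights and 0.37 with the animal number series, and from -0.64 to 0.31 with each mouse left out. IGKV9-120 was at 0.16 with array weights, 0.26 with the animal number series and from -1.14 to 0.11 with each mouse left out, and IGKV3-2 at 0.091 with array weights and from -1.24 to 0.21. IGHV8S6, at -0.08, was at 0.087 with quantile normalization, 0.099 centred, 0.13 with neqc, 0.058 with array weights, 0.055 with the animal number series and from -0.25 to 0.046 with each mouse left out. IGKV12-98, at -0.07, was at 0.11, 0.10, 0.33, 0.14 and 0.0092 in the same order and from -0.38 to 0.41 with each mouse left out. IGKV6-13 was at -0.22 to 0.27 with each mouse left out, and Igj was at 0.077 when centred. Across segments, 8 of the 36 members were detected on only 3 arrays, where signal over background limits the size of any change.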
